A study of Mus musculus with 10 samples.

Results

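The transcriptional repressors of the circadian clock and the PAR-bZIP factors that carry its rhythm to output genes were followed in the liver of germ-free (GF) mice given microbiota-derived extracellular vesicles (MEV). The 9 members, chosen by name, were *Nr1d1*, *Nr1d2*, *Dbp*, *Tef*, *Hlf*, *Nfil3*, *Bhlhe40* and *Bhlhe41*, and beside these factors *Usp2*, which encodes neither kind. Each was found among the 12148 genes of the count table by the GENCODE symbol of its Ensembl identifier. Each of the 10 libraries was from the liver of 1 wild-type germ-free C57BL/6 mouse. The 5 GF+MEV mice received vesicles from the gut of control specific-pathogen-free mice by mouth in PBS over several weeks, and the 5 GF+PBS mice received PBS alone. The design asks whether vesicles alone, without a living microbiota, alter the liver transcriptome. Both groups therefore lacked a microbiota, each group came from a single experiment, and the time of day and feeding state at which the livers were taken were not given in the sources used here. The RNA was from whole liver, so fewer cells of a type and less RNA per cell cannot be told apart.

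In the liver clock, CLOCK and BMAL1 activate genes through E-boxes, and the products of several of those genes feed back on them. REV-ERBα and REV-ERBβ, encoded by *Nr1d1* and *Nr1d2*, bind RORE sequences and repress *Arntl*, the gene of BMAL1, in competition with the ROR activators. DBP, TEF and HLF activate genes through D-boxes, where NFIL3 represses, and in liver they are known for their control of detoxifying enzymes. BHLHE40 and BHLHE41 compete with CLOCK and BMAL1 at E-boxes, and USP2 is a deubiquitinase with a strongly rhythmic liver transcript that acts on clock proteins.

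The letters through which these factors act also occur next to some of their own genes. Of the 9 members, 8 had an entry in the RefSeq table of promoters (GRCm38.p6), *Tef* with 2 start sites, and *Bhlhe40* had none. The 250 bases before each start site were searched on both strands for the E-box CACGTG, the D-box TTANGTAA, the RORE core TNGGTCA, the glucocorticoid response core ACANNNTGT and the cAMP response element TGACGTCA. The stretches below show 4 of the matches in capitals with up to 30 bases on each side, because they put letters recognised by the clock or by cAMP signalling beside the start sites of *Tef*, *Bhlhe41* and *Hlf*. Positions count back from -1, the base before the start site, to the first base of the match. The E-box at -138 of the downstream *Tef* start site lies at chr15:81811246-81811311 on the plus strand, and the RORE core at -219, read on the opposite strand, at chr15:81811165-81811231. The E-box at -153 of *Bhlhe41* lies at chr6:145865538-145865603 on the minus strand, with 21 of the bases printed inside the first exon of another annotated transcript of the gene, and the cAMP response element at -9 of *Hlf* lies at chr11:90390918-90390956 on the minus strand.
Tef E-box: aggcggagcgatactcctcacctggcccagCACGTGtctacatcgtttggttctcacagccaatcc
Tef RORE core: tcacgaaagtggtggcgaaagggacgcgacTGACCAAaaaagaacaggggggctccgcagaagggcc
Bhlhe41 E-box: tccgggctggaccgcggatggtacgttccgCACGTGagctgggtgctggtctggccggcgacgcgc
Hlf cAMP response element: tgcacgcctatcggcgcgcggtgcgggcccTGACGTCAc
An E-box at -127 of the upstream *Tef* start site and a RORE core at -12 of *Nfil3* were the other matches, and neither stretch is printed because most of it lies in annotated exons. Among all 32851 promoters of the table, 6.02% held the E-box, 2.06% the D-box, 9.19% the RORE core, 5.84% the glucocorticoid response core and 1.55% the cAMP response element in the same 250 bases. The windows of *Nr1d1*, *Nr1d2*, *Dbp* and *Usp2* held none of these letters. A match is a description of the sequence, and binding was not measured.

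Levels are given as TMM-normalized CPM, a gene's count scaled to the size of its library by edgeR's TMM method. Libraries held between 15746119 and 20523649 counts (median 16937758). No library was a copy of another, since the chi-square per gene between livers of the same group was at least 6.33 over 20 pairs. Sampling noise alone gives about 1. Pairs with GF+MEV replicate 2 stood out at 133 to 175, and no other pair was above 24.9. What set this liver apart was not tested. The TMM factor was 0.890 in GF+MEV replicate 2 and 0.978 to 1.04 in the other libraries. Hepatocyte genes (*Alb*, *Apoa1*, *Ttr*, *Cps1* and *Hnf4a*) summed to 83877 to 102546 CPM in GF+MEV and 87752 to 103650 CPM in GF+PBS livers, so the liver label held. Of these 5, *Hnf4a* (0.45) and *Cps1* (0.38) were called higher on the log2 scale. Leukocyte markers summed to 8.21 to 15.5 CPM in GF+MEV and 13.5 to 16.4 CPM in GF+PBS, with *Cd79a* and *Cd79b* lower, and cholangiocyte markers to 28.1 to 79.3 and 23.2 to 29.7 CPM. Of the 3 cholangiocyte markers tested, *Krt19* was called higher (3.87), and *Sox9* (-0.98) and *Spp1* (0.52) were not called. Kupffer cell markers were at 158 to 208 CPM in GF+MEV replicates 1, 2, 3 and 5, at 323 CPM in GF+MEV replicate 4 and at 188 to 275 CPM in GF+PBS, and replicate 4 was also the lowest GF+MEV liver for *Dbp*, *Tef*, *Hlf* and *Usp2*. Endothelial markers were at 83.8 to 135 and 103 to 137 CPM, with *Lyve1* (0.84) called higher and *Clec4g* (-0.48) lower, and stellate cell markers at 126 to 208 and 161 to 172 CPM. Skeletal muscle markers were at 214 to 295 CPM in GF+MEV, at 181 and 227 CPM in GF+PBS replicates 1 and 2, and at 579, 411 and 551 CPM in GF+PBS replicates 3, 4 and 5. The part of these cells in the results was not tested.

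Of the 9 members, 1 rose (*Bhlhe40*), 2 fell (*Nr1d1* and *Bhlhe41*) and 6 were not called by edgeR's quasi-likelihood test at a Benjamini-Hochberg adjusted p under 0.05. Over all 12147 genes tested, 7.64% were called, 4.12% higher and 3.52% lower in GF+MEV. The median log2 fold change of the members was 0.05, against -0.0037 over all genes. In 2 members, *Nr1d1* and *Bhlhe40*, the groups did not overlap, as in 7.39% of all genes. The count of 3 is small, and no test over the members was made.

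**Figure D1:**
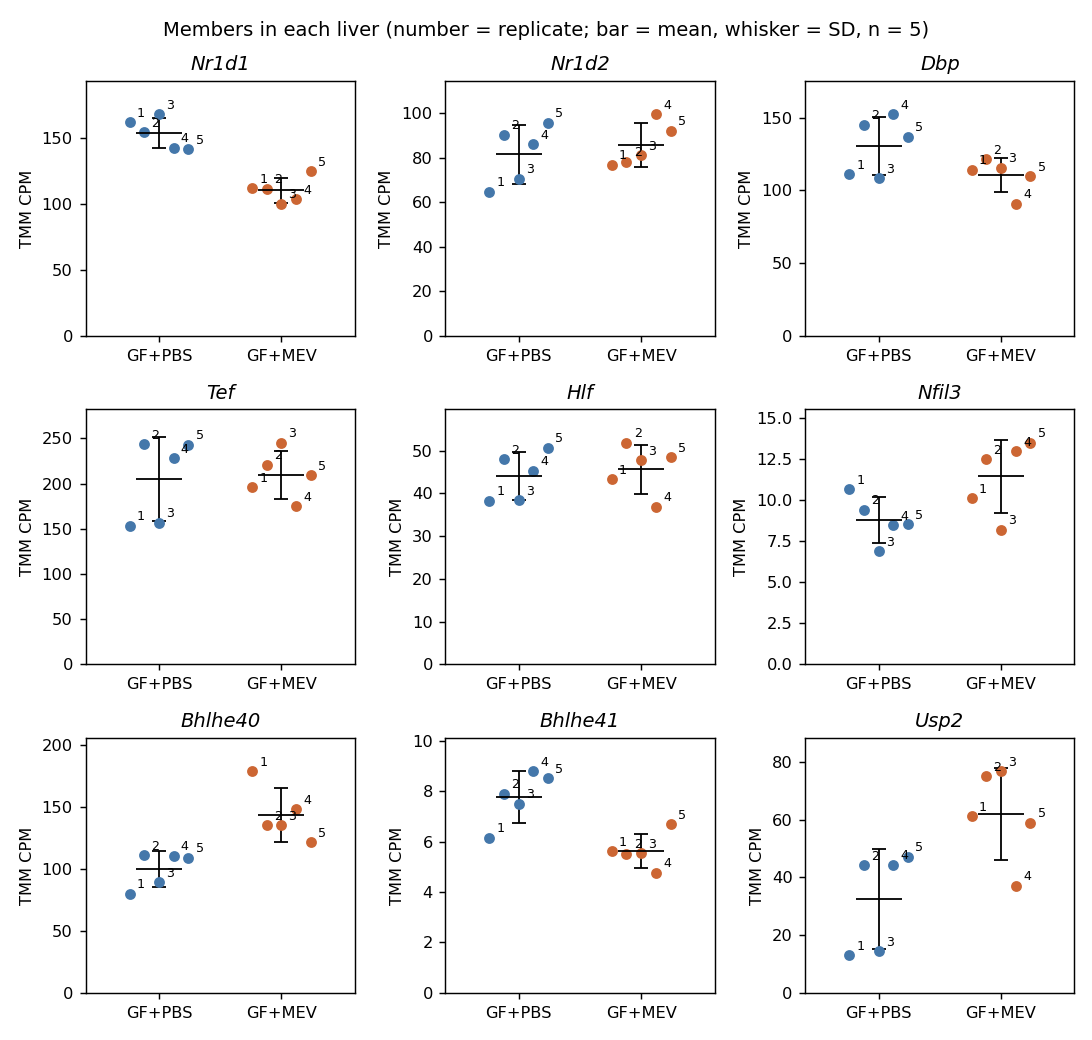
TMM-normalized CPM of each member (y axis, from 0) in the 5 GF+PBS (blue) and 5 GF+MEV (orange) livers, each point a liver with its replicate number, the bar the mean and the whisker the SD. *Nr1d1* sits at 142 to 168 CPM in GF+PBS and 100.3 to 125 CPM in GF+MEV, *Bhlhe40* at 80.0 to 111 and 122 to 179 CPM, and GF+PBS replicates 1 and 3 are the lowest of their group in 7 panels.

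*Nr1d1* (ENSMUSG00000020889, chr11:98767932-98775333, minus strand, GRCm38) encodes REV-ERBα. Its level in GF+PBS replicates 1 to 5 was 162, 154, 168, 143 and 142 CPM, and in GF+MEV replicates 1 to 5 it was 112, 112, 100.3, 104 and 125 CPM. The highest GF+MEV liver was below the lowest GF+PBS liver. The group means were 110.4 ± 9.40 CPM in GF+MEV and 154 ± 11.6 CPM in GF+PBS (SD, n = 5 each), so that *Nr1d1* fell by 28.2%, a difference of -0.48 ± 0.07 on the log2 scale (SE, standard error, adjusted p = 0.00059 by edgeR). It was a tight gene within each group, with a smaller spread in log2 CPM than most genes: 36.2% of genes varied less in GF+MEV and 28.7% in GF+PBS. Its exons overlap those of *Thra*, a thyroid hormone receptor gene on the other strand, over 263 bp or 8.5% of the exon length, and *Thra* itself was at 14.2 CPM in GF+MEV and 15.6 CPM in GF+PBS (adjusted p = 0.476 by edgeR).

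*Nr1d2* (ENSMUSG00000021775, chr14:18204054-18239127, minus strand), the gene of the related receptor REV-ERBβ, was not called. It was at 64.9, 90.4, 70.6, 86.1 and 95.8 CPM in GF+PBS and at 76.9, 78.3, 81.3, 99.5 and 92.2 CPM in GF+MEV replicates 1 to 5. The groups overlapped over most of their range. The log2 difference was 0.07 ± 0.13 (SE, adjusted p = 0.768 by edgeR), with a limma-voom 95% interval of -0.15 to 0.31, against -0.63 to -0.33 for *Nr1d1*. The difference between the receptors was tested directly through the log2 ratio of their counts in each liver. *Nr1d1* over *Nr1d2* was 0.54, 0.51, 0.30, 0.06 and 0.43 in GF+MEV and 1.32, 0.77, 1.25, 0.73 and 0.56 in GF+PBS livers, and every GF+MEV liver was below every GF+PBS liver. The highest ratios were those of GF+PBS replicates 1 and 3 (1.32 and 1.25), and GF+PBS replicate 5 (0.56) was close to GF+MEV replicate 1 (0.54). The mean ratio was 0.37 ± 0.20 in GF+MEV and 0.93 ± 0.34 in GF+PBS (SD, n = 5 each), a difference of -0.56 (exact two-sided permutation test, p = 0.0079, 0.016 adjusted over 6 ratios). With 5 livers against 5, 0.0079 is the smallest p that the 252 labelings allow.

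Genes that the REV-ERB receptors are known to repress were not called. Of 8 such genes, edgeR, DESeq2 and limma-voom each called 0 at an adjusted p under 0.05, where edgeR called 7.64% of all genes tested. With 8 genes, 0 calls is close to that share. At an unadjusted edgeR p under 0.05, 1 was higher (*Nfil3*) and 0 were lower. *Arntl* was at 1.59 to 3.20 CPM in GF+MEV and 1.18 to 4.23 CPM in GF+PBS livers, which differed by -0.26 on the log2 scale (adjusted p = 0.712 by edgeR). Its limma-voom 95% interval was wide, -0.85 to 0.58, with as few as 21 counts in a library. *Elovl3*, a fatty acid elongase gene, had a log2 fold change of 0.24 (adjusted p = 0.629), and *Insig2*, which restrains sterol synthesis, one of 0.30 (adjusted p = 0.258), both by edgeR. Their limma-voom 95% intervals were -0.16 to 0.86 and 0.019 to 0.64, before adjustment for the number of genes. *Clock* (0.22), *Npas2* (-0.25), *Cry1* (-0.12) and *Apoc3* (-0.02) make up the rest, on the log2 scale. The median of the list was 0.10.

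Among the PAR-bZIP activators, *Dbp* (ENSMUSG00000059824, chr7:45705088-45710203, plus strand) had the most negative value. It was at 111, 145, 108, 152 and 137 CPM in GF+PBS and at 114, 121, 115, 90.8 and 109.9 CPM in GF+MEV replicates 1 to 5. All GF+MEV livers were below GF+PBS replicates 2, 4 and 5, and GF+MEV replicate 4 was below the whole GF+PBS group. The log2 difference was -0.25 ± 0.12 (SE, adjusted p = 0.176 by edgeR). The limma-voom 95% interval was -0.46 to -0.019, before adjustment for the number of genes. *Dbp* was not called. Its exons overlap those of *Sphk2* on the other strand over 539 bp, 18.0% of their length, and *Sphk2* was at 61.9 CPM in GF+MEV and 61.4 CPM in GF+PBS.

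*Tef* (ENSMUSG00000022389, chr15:81802421-81826863, plus strand), whose downstream start site has the E-box and RORE core shown above, was at 153, 244, 157, 228 and 243 CPM in GF+PBS and at 196, 221, 245, 175 and 209 CPM in GF+MEV replicates 1 to 5. All GF+MEV livers except replicate 3 fell inside the range of the GF+PBS group. The log2 difference was 0.03 ± 0.17 (SE, adjusted p = 0.933 by edgeR, limma-voom 95% interval -0.24 to 0.35). *Hlf* (ENSMUSG00000003949, chr11:90336536-90390895, minus strand) was at 38.3, 48.0, 38.4, 45.3 and 50.6 CPM in GF+PBS and at 43.3, 51.8, 47.7, 36.8 and 48.4 CPM in GF+MEV. Both groups spanned nearly the same levels, with a difference of 0.05 ± 0.12 on the log2 scale (SE, adjusted p = 0.845 by edgeR, limma-voom 95% interval -0.17 to 0.26).

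*Nfil3* (ENSMUSG00000056749, chr13:52967209-52981073, minus strand), the repressor that shares D-boxes with these activators, was much less abundant. Its level was 10.7, 9.41, 6.90, 8.49 and 8.53 CPM in GF+PBS and 10.1, 12.5, 8.21, 13.0 and 13.5 CPM in GF+MEV replicates 1 to 5. Replicates 2, 4 and 5 of GF+MEV were above all GF+PBS livers, and replicates 1 and 3 were among them. The log2 difference was 0.37 ± 0.17 (SE, adjusted p = 0.145 by edgeR). The limma-voom 95% interval was 0.027 to 0.67, before adjustment for the number of genes. *Nfil3* passed the threshold only when GF+MEV replicate 3 was left out (log2 fold change 0.48, edgeR adjusted p = 0.043).

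Within a liver, *Dbp* was lower relative to its family in GF+MEV mice. The log2 ratio of *Dbp* over *Hlf* was 1.40, 1.23, 1.28, 1.30 and 1.18 in GF+MEV and 1.53, 1.6, 1.5, 1.75 and 1.43 in GF+PBS replicates 1 to 5. Every GF+MEV liver was below every GF+PBS liver, with a difference of the means of -0.29 (exact two-sided permutation test, p = 0.0079, 0.016 adjusted over 6 ratios). *Dbp* over *Tef* was -0.92 ± 0.11 in GF+MEV and -0.63 ± 0.15 in GF+PBS (SD, n = 5 each), a difference of -0.29 (exact two-sided permutation test, p = 0.016, adjusted 0.024), and 4 of 5 GF+MEV livers were below all GF+PBS livers. *Tef* over *Hlf* differed by 0.0042 (exact two-sided permutation test, p = 0.952). Activator over repressor, *Dbp* over *Nfil3*, was 3.49, 3.28, 3.81, 2.80 and 3.02 in GF+MEV and 3.38, 3.94, 3.97, 4.16 and 4.0 in GF+PBS. The difference of -0.61 passed the exact two-sided permutation test (p = 0.024, adjusted 0.029), but not in 8 of the 10 fits that left out a liver, where the adjusted p was up to 0.067.

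**Figure D2:**
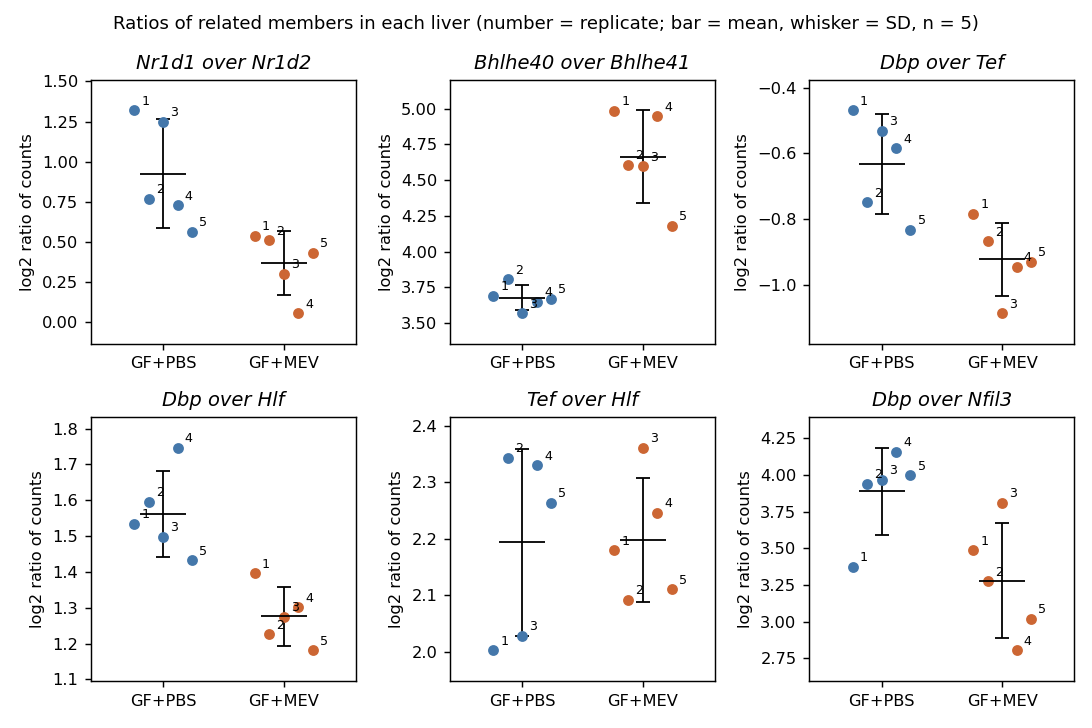
Log2 ratio of the counts of related members (y axis, not starting at 0) in each GF+PBS (blue) and GF+MEV (orange) liver, with the replicate number, the mean (bar) and SD (whisker). The groups are apart for *Nr1d1* over *Nr1d2*, *Bhlhe40* over *Bhlhe41* and *Dbp* over *Hlf*, and *Tef* over *Hlf* has almost the same mean in both, 2.20 and 2.19.

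Among 9 genes known as targets of the PAR-bZIP factors, 1 rose and 3 fell, with a median log2 fold change of -0.21. Over all genes tested, 4.12% were called higher and 3.52% lower. *Alas1*, the rate-limiting enzyme gene of haem synthesis, rose by 1.51 on the log2 scale (adjusted p = 0.011 by edgeR). It was at 1020 to 1363 CPM in GF+MEV livers, at 172 and 169 CPM in GF+PBS replicates 1 and 3, and at 482 to 755 CPM in GF+PBS replicates 2, 4 and 5. The cytochrome P450 genes *Cyp2a4* (-2.24), *Cyp2a5* (-0.63) and *Cyp2b9* (-3.01) fell on the log2 scale, with edgeR adjusted p-values of 0.0082, 0.0032 and 0.0037. These 3 genes have near-identical paralogs with which reads can be shared, so their values are uncertain. *Cyp2b9* was also low in GF+MEV, at 0.241 to 9.51 CPM with as few as 5 counts, against 13.2 to 37.1 CPM in GF+PBS. *Cyp2a4* was at 1.03 to 8.03 CPM in GF+MEV, with as few as 15 counts. In GF+PBS it was at 7.92 to 27.5 CPM, so that its groups overlapped. Without GF+MEV replicate 5 *Cyp2b9* was at -4.08 on the log2 scale, and by limma-voom at -3.93. *Por*, which supplies electrons to the P450 enzymes, had a log2 fold change of 0.57 and was not called (adjusted p = 0.078 by edgeR). The others, not called either, were *Nr1i3* (0.15), *Cyp2b10* (-0.21), *Cyp7a1* (-0.56) and *Ppara* (0.09) on the log2 scale. The called targets thus changed in both directions. Any link between them and the 3 activators, none of which was called, was not tested.

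*Bhlhe40* (ENSMUSG00000030103, chr6:108660629-108666925, plus strand), a repressor at E-boxes that also responds to hormones and stress, was the member that rose. It was at 80.0, 111, 89.3, 111 and 109 CPM in GF+PBS and at 179, 135, 135, 148 and 122 CPM in GF+MEV replicates 1 to 5. The lowest GF+MEV liver was above the highest GF+PBS liver, and GF+MEV replicate 1 was the highest of all. The means were 144 ± 21.6 CPM and 99.9 ± 14.4 CPM (SD, n = 5 each), 43.7% higher in GF+MEV, a difference of 0.52 ± 0.13 on the log2 scale (SE, adjusted p = 0.0090 by edgeR).

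*Bhlhe41* (ENSMUSG00000030256, chr6:145858243-145865558, minus strand), its closest relative and the gene with the E-box shown above, moved the other way at a far lower level. It was at 6.16, 7.90, 7.50, 8.79 and 8.53 CPM in GF+PBS and at 5.61, 5.52, 5.55, 4.77 and 6.68 CPM in GF+MEV replicates 1 to 5. Only GF+MEV replicate 5 and GF+PBS replicate 1 crossed. *Bhlhe41* fell by 27.8%, a difference of -0.47 ± 0.12 on the log2 scale (SE, adjusted p = 0.029 by edgeR). Each library held only 80 to 174 counts of it, and the call was lost in 8 of the 10 fits that left out a liver, all but those without GF+MEV replicate 5 or GF+PBS replicate 1 (adjusted p 0.012 to 0.084 over the 10 fits). Exons of Gm43909 on the other strand overlap 19.0% of its exon length. The log2 ratio of *Bhlhe40* over *Bhlhe41* was 4.99, 4.61, 4.60, 4.94 and 4.18 in GF+MEV and 3.69, 3.81, 3.57, 3.65 and 3.67 in GF+PBS livers. The GF+MEV livers all exceeded the GF+PBS livers, and the ratio was nearly constant among GF+PBS livers. The means differed by 0.99, 4.66 ± 0.33 against 3.68 ± 0.09 (SD, n = 5 each, exact two-sided permutation test, p = 0.0079, 0.016 adjusted over 6 ratios).

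*Usp2* (ENSMUSG00000032010, chr9:44067021-44095627, plus strand) had the largest fold change of the members and the largest spread, and was not called. Its level was 13.0, 44.1, 14.4, 44.3 and 47.2 CPM in GF+PBS and 61.1, 75.0, 76.7, 37.2 and 58.9 CPM in GF+MEV replicates 1 to 5. GF+MEV replicates 1, 2, 3 and 5 were above all GF+PBS livers, and replicate 4 was below GF+PBS replicates 2, 4 and 5. The log2 difference was 0.92 ± 0.46 (SE, adjusted p = 0.104 by edgeR), and the limma-voom 95% interval ran from 0.36 to 1.81 before adjustment for the number of genes. The SD of log2 CPM among GF+PBS livers was 0.94, larger than in 99.8% of genes. With each liver left out in turn the value ran from 0.72 to 1.09, and it was 0.86 (adjusted p = 0.189 by edgeR) with GF+PBS replicates 1 and 3, and 4 and 5, summed into 1 sample each.

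The core clock and other output genes show where the members stood. Of 12 core clock genes, *Per1* and *Ciart* rose, by 1.69 and 2.0 on the log2 scale (edgeR adjusted p = 0.00026 and 0.0014), and edgeR, limma-voom and DESeq2 each called 0 lower, with 0 lower also at an unadjusted edgeR p under 0.05. *Per1* was at 16.4 and 15.5 CPM in GF+PBS replicates 1 and 3, and at 37.1 to 40.3 CPM in GF+PBS replicates 2, 4 and 5. *Ciart* was at 4.89 and 5.06 CPM, and at 16.4 to 18.5 CPM, in the same livers. In GF+MEV they were at 85.2 to 101 CPM and 31.1 to 66.5 CPM. The low values of replicates 1 and 3 thus add to both fold changes. The median of the 12 core clock genes was 0.10. By edgeR, 4.12% of all genes tested were called higher and 3.52% lower. *Csnk1d*, the gene of a kinase that acts on PER proteins, was at 72.2 to 75.3 CPM in GF+MEV and 64.5 to 69.7 CPM in GF+PBS, without overlap, and was called by DESeq2 (adjusted p = 0.036) but not by edgeR (log2 fold change 0.15, adjusted p = 0.090). *Per2* (-0.23), *Per3* (-0.46), *Cry2* (0.21), *Rora* (0.22) and *Csnk1e* (0.05) were not called, on the log2 scale. Of 4 other output genes, *Noct*, which encodes the rhythmic phosphatase nocturnin, rose by 2.66 and *Cdkn1a*, a cell cycle inhibitor gene, by 2.39 on the log2 scale (edgeR adjusted p = 0.0002 and 0.00012). Both were low in GF+PBS livers. *Cdkn1a* was at 0.505 to 2.50 CPM there, with as few as 10 counts, and at 5.55 to 9.38 CPM in GF+MEV. *Noct* was at 1.72 to 12.7 CPM in GF+PBS, with as few as 31 counts, and at 39.6 to 61.6 CPM in GF+MEV. *Wee1* (-0.33), the gene of a mitotic kinase, and *Nampt* (0.24), which makes an NAD precursor, were not called, and the median of the 4 was 1.31.

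**Figure D3:**
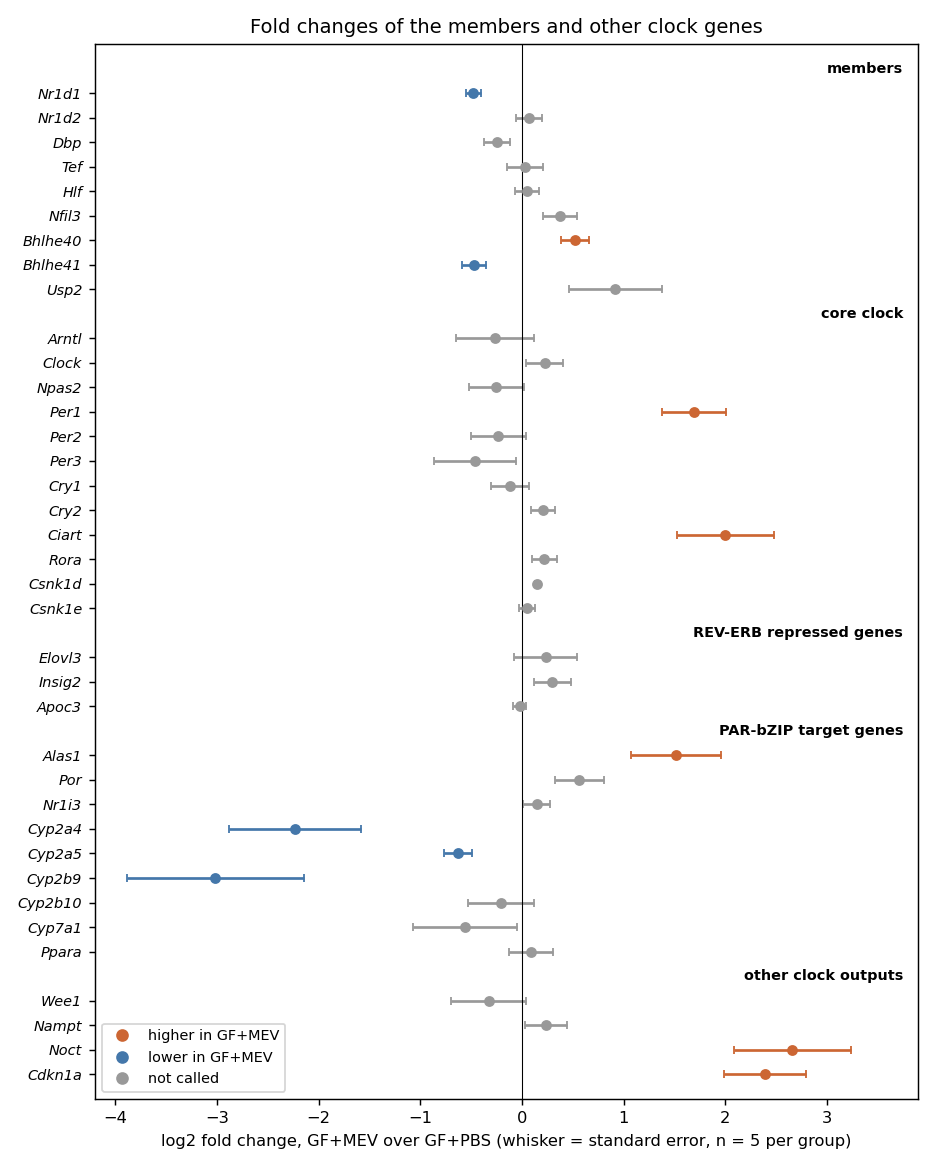
Log2 fold change of GF+MEV over GF+PBS (x axis) for the members and for the other clock genes by list, points with the standard error as whisker (n = 5 per group), orange where edgeR called a gene higher, blue where lower and grey where not. Members lie between -0.48 (*Nr1d1*) and 0.92 (*Usp2*), a narrower range than the -3.01 of *Cyp2b9* to the 2.66 of *Noct*.

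Most members also varied together within the GF+PBS group, as seen only once the values were known. GF+PBS replicates 1 and 3 were both below replicates 2, 4 and 5 in 7 members, all but *Nr1d1* and *Nfil3*. In *Nr1d1* they were both above the other livers, and in *Nfil3* they lay at opposite ends, at 10.7 and 6.90 CPM. Over all genes tested, replicates 1 and 3 were both lowest in 18.3% and both highest in 15.4%. They were both lowest in 7 of 12 core clock genes, in 8 of 9 PAR-bZIP targets and in 3 of 4 other outputs, but in 0 of 8 REV-ERB repressed genes, where they were both highest in 3, *Arntl*, *Elovl3* and *Insig2*. What set these livers apart was not tested. For *Nr1d1* and *Bhlhe40*, whose groups did not overlap, replicates 1 and 3 were the GF+PBS livers farthest from GF+MEV. GF+PBS replicates 2, 4 and 5 were at 142 to 154 CPM for *Nr1d1*, above the 100.3 to 125 CPM of GF+MEV. For *Bhlhe40* they were at 109 to 111 CPM, below the 122 to 179 CPM of GF+MEV.

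**Figure D4:**
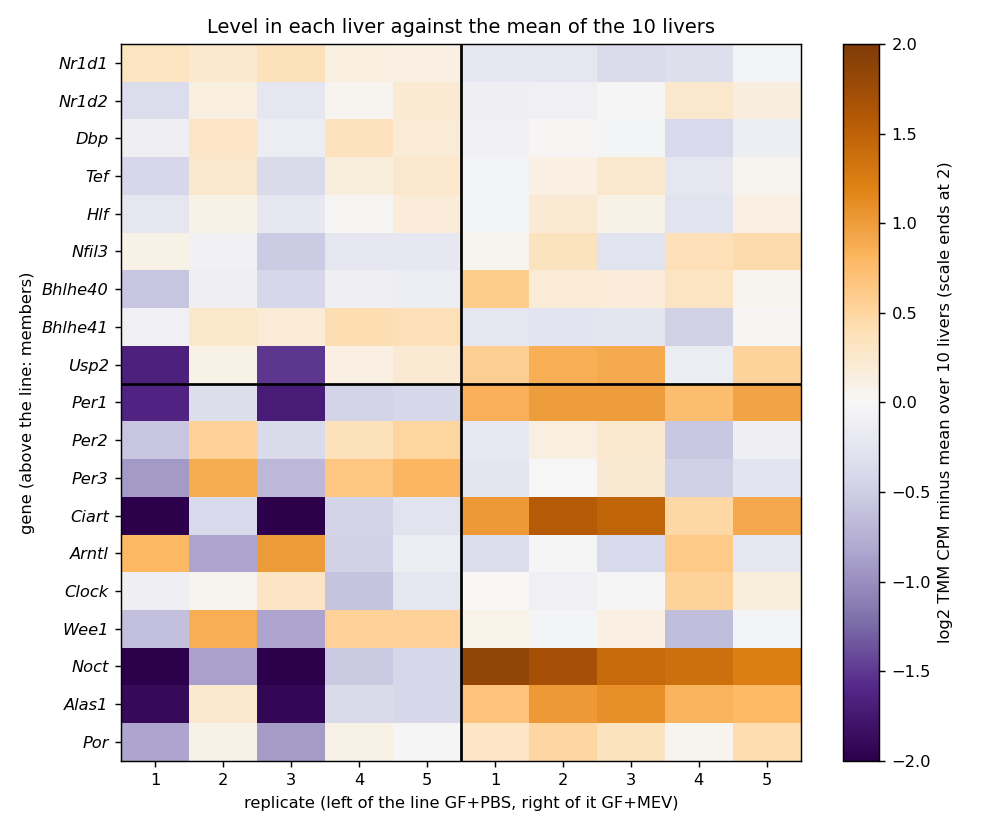
Level of each member and of 10 other clock genes in each liver as log2 CPM minus its mean over the 10 livers (colour scale from -2 to 2), GF+PBS replicates left and GF+MEV replicates right of the line. *Usp2*, *Per1*, *Ciart*, *Noct* and *Alas1* are darkest in GF+PBS replicates 1 and 3, and *Nr1d1* is above its mean in all 5 GF+PBS livers.

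As a description over 10 livers, after centring each gene on its group mean, log2 CPM of the D-box activators and *Usp2* moved together. Pearson's r was 0.98 for *Tef* and *Usp2*, 0.94 for *Dbp* and *Usp2*, 0.89 for *Dbp* and *Tef*, 0.88 for *Tef* and *Hlf*, 0.88 for *Hlf* and *Usp2* and 0.86 for *Dbp* and *Hlf*. Not only these genes did so, since *Bhlhe41* was at 0.69 with *Dbp*, 0.68 with *Tef*, 0.72 with *Hlf* and 0.72 with *Usp2*. With the same genes *Bhlhe40* was at 0.21 to 0.58 and *Nr1d2* at 0.30 to 0.56. *Nr1d1* was at -0.53 with *Tef*, -0.52 with *Usp2*, -0.36 with *Dbp* and -0.19 with *Hlf*, and *Nfil3* was at -0.12 with *Dbp* and -0.19 with *Tef*. These points share their libraries and include the low GF+PBS replicates 1 and 3.

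Among 11834 genes that averaged 1 CPM or more, the genes most like a member by the same measure were often of the clock for *Tef* and *Usp2* and not for the rest. Most like *Tef* were *Per2* (r = 0.991, 0.989 to 0.994 with a liver left out) and *Usp2* (0.977). For *Usp2* they were *Ciart* (0.992) and *Slc5a6* (0.986), a vitamin transporter gene. For *Dbp* they were *Herpud1* (0.970), a gene of endoplasmic reticulum quality control, and *Slc37a4* (0.969), the glucose-6-phosphate transporter gene, and unlike *Dbp* both were higher in GF+MEV, by 1.26 (edgeR adjusted p = 5.8e-07) and 0.49 (adjusted p = 0.015 by edgeR) on the log2 scale. *Nr1d1* was most like *Arhgef3* (0.924) and *Gpd1* (0.904), *Nr1d2* like *Cog5* (0.956) and *Trak2* (0.952), and *Hlf* like *Rhobtb1* (0.972) and *Rdh13* (0.958). *Nfil3* was most like *Arsb* (0.937) and *Ankrd13c* (0.878), *Bhlhe40* like *Bcorl1* (0.918) and *Tbc1d22b* (0.909), and *Bhlhe41* like *Acad10* (0.957) and *Rfx5* (0.944). No companion of these 6 members was called.

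Between genes, levels were compared as CPM per kilobase of annotated exon over all 10 livers. *Nr1d1* (42.9 ± 8.09) and *Dbp* (40.3 ± 6.27) had the highest means over both groups, followed by *Tef* (26.3 ± 4.5) and *Bhlhe40* (25.9 ± 6.13), then by *Nr1d2* (15.5 ± 2.07) and *Usp2* (9.79 ± 4.56), all as CPM per kilobase (SD, n = 10). *Hlf* (6.72 ± 0.81) and *Nfil3* (5.0 ± 1.10) were lower, and *Bhlhe41* was lowest at 0.997 ± 0.21 CPM per kilobase (SD, n = 10). The order turned between the groups for the neighbours at the top. *Dbp* (36.8) was above *Nr1d1* (35.9) and *Bhlhe40* (30.5) above *Tef* (26.6) in GF+MEV, while *Nr1d1* (49.9) was above *Dbp* (43.7) and *Tef* (26.1) above *Bhlhe40* (21.2) in GF+PBS, as mean CPM per kilobase. The ranges of neighbours in the order over all 10 livers overlapped in every case but *Nfil3* and *Bhlhe41*. Their lengths count all annotated exons, so the order can shift with the transcripts in use.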

How the data were processed

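Liver RNA of 10 mice was measured by RNA-seq, 1 library per mouse, with a kit that does not mark strand. The authors deposited raw read counts per Ensembl gene, not normalized. Per the labels and methods, they used bcl2fastq 2.17, aligned to GRCm38 with STAR 2.7.3a, counted with HTSeq, whose version and strand setting were not given in the sources used here, and dropped genes below 20 counts over their samples. The table also had 5 columns that match no described sample and were not used. Symbols, positions and exon lengths came from GENCODE for GRCm38, and 10 identifiers had no symbol.

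Genes with at least 20 counts over the 10 libraries were fitted in R 4.3.3 with edgeR 4.0.16 (TMM, quasi-likelihood test, group alone, Benjamini-Hochberg over 12147 genes, threshold 0.05). Standard errors (SE) rest on log2 CPM (prior count 2), and 95% intervals from limma-voom (limma 3.58.1). Ratios of counts, with 0.5 added, were put to exact two-sided permutation tests. The genes named were the members, the listed clock genes and the 2 genes most correlated with each member, beside cell type markers and genes that overlap a member. Members and lists were chosen with earlier results of these data known, and some listed genes are not reported here. Alternatives were DESeq2 1.42.0, limma-voom, other scalings and filters, a replicate block, each liver left out, and alike GF+PBS livers summed. The labels number separate mice, and p-values measure the spread between these livers. Library totals of 15746119 to 20523649 counts limit precision for low genes such as *Bhlhe41*. The fits were tested on simulated data.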

Additional observations from a re-analysis of the deposited data

Results flagged for a closer look

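Among 86 groups of 5 values, 4 held a liver far from the rest of its group by Dixon's ratio, where chance alone gives about 4.3. *Dbp* over *Nfil3* in GF+PBS replicate 1 was 3.38 on the log2 scale, below the other GF+PBS livers (3.94 to 4.16). *Npas2* was at 0.202 CPM in GF+PBS replicate 4, below the 0.444 to 0.480 CPM of the rest of its group. *Cyp7a1*, the rate-limiting enzyme gene of bile acid synthesis, was at 138 CPM in GF+PBS replicate 2, above the 25.0 to 42.0 CPM of the rest. *Wee1* was at 7.69 CPM in GF+MEV replicate 4, below the 11.6 to 13.0 CPM of the rest. The causes were not tested.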

How the results depend on the processing

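The calls of *Nr1d1* and *Bhlhe40* held under every alternative run, and that of *Bhlhe41* was lost with the replicate block, with alike GF+PBS livers summed (edgeR adjusted p = 0.071) and in 8 of 10 fits without a liver. DESeq2 called 1201 genes, limma-voom 946, RLE scaling 943, no filter 927 and at least 10 counts in every library 894, against 928, each with 3 members. Upper-quartile scaling called 1040, of which 41.2% were higher against 53.9%. Summing GF+PBS replicates 1 and 3, and 4 and 5, left 561 genes. The fit then held fewer samples, and why fewer genes were called was not tested. Leaving out a liver gave 696 to 926 genes, 2 to 3 members and 8 to 9 listed genes. Same-numbered livers deviated together weakly or not at all (r from -0.188 to 0.166, against 0.055 to 0.121 for the best other number). Such weak correlations cannot tell whether the numbers pair the mice. With the replicate block 792 genes and 2 members were called (*Bhlhe41* adjusted p = 0.057), and *Por* passed (0.63, adjusted p = 0.048), as it did without GF+PBS replicate 2. *Rora* passed without GF+PBS replicate 5 (0.31, edgeR adjusted p = 0.049).

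Some log2 fold changes of genes that were not called turned sign. *Tef* was -0.0080 with upper-quartile scaling, -0.00032 with summed livers and -0.058 to 0.10 with a liver left out. *Apoc3* was 0.0056 with summed livers and -0.049 to 0.031 with a liver left out. With a liver left out, *Nr1d2* ran from -0.0013 to 0.13, *Arntl* from -0.49 to 0.0066, *Cyp7a1* from -0.81 to 0.14 (0.14 without GF+PBS replicate 2) and *Ppara* from -0.045 to 0.22.

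Compared by group medians, the log2 ratios differed by -0.34 for *Nr1d1* over *Nr1d2*, 0.94 for *Bhlhe40* over *Bhlhe41*, -0.35 for *Dbp* over *Tef*, -0.26 for *Dbp* over *Hlf* and -0.69 for *Dbp* over *Nfil3* (exact permutation, adjusted p = 0.057 each), and -0.084 for *Tef* over *Hlf*. With the replicate block, an exact sign-flip test of 5 pairs that cannot go below p = 0.0625, the differences of -0.56, 0.99, -0.29, -0.29 and -0.61 in the same order could not pass. With a liver left out they ran from -0.65 to -0.46, 0.90 to 1.11, -0.34 to -0.25, -0.32 to -0.24 and -0.74 to -0.49, and *Tef* over *Hlf* from -0.044 to 0.042. The causes were not tested.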
